A study of Mus musculus with 11 samples.

Results

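The small nucleolar RNA (snoRNA) genes described here are the rows of the gene table whose symbol starts with Snord or Snora. There were 106 such rows among 22377, of which 71 were Snord genes (C/D box class) and 35 were Snora genes (H/ACA box class). All 106 identifiers matched GENCODE M21 on GRCm38, where 1 of them, Snord43, carries the type miRNA. The symbols Snord80 and Snora16a were each listed in 2 rows.

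The class names can be checked from sequence alone. A box C core (TGATG, read on the RNA strand) stood in the first 25 bases of 63 of the 71 C/D transcripts (88.7%), and a box D core (CTGA) in the last 20 bases of 69 of them (97.2%). The same letters were found in the same windows of 3.25% and 9.72% of 8964 other transcripts of 60 to 300 bases. ACA stood in the last 10 bases of 33 of the 35 H/ACA transcripts (94.3%), against 13.4% of those other transcripts.

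snoRNAs guide the chemical modification of ribosomal and spliceosomal RNA in the nucleolus. C/D box snoRNAs bind fibrillarin, Nop56, Nop58 and Snu13 and direct 2′-O-methylation of ribose. H/ACA box snoRNAs bind dyskerin, Gar1, Nhp2 and Nop10 and direct pseudouridylation, and a few members of both classes instead help to cut the ribosomal RNA precursor. Most mammalian snoRNAs lie in introns of a host gene and are trimmed out of the spliced intron, whereas U8 (Snord118) and U13 (Snord13) have promoters of their own. The assay was cap analysis of gene expression (CAGE), which captures capped 5′ ends of RNA. A row therefore counts capped ends assigned to a gene, and the amount of mature, trimmed snoRNA was not measured.

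RNA came from the whole hippocampus of male C57BL/6N mice, which were 8 to 10 or 65 to 85 weeks old. Photothrombosis (PT) is a stroke model in which rose bengal is activated by light over 1 side of the cortex, here the left parietal region. One library was made from naive mice (untreated control), and 1 from each side of the brain, infarcted and non-infarcted, in each of 5 PT conditions. These were 7 d after PT and 1 m after PT, each without and with the anti-seizure drug levetiracetam (LEV), and 2 m after PT following 2 weeks of LEV withdrawal (the series text gives 1 week). LEV was given in drinking water at 5 mg/mL for 2 weeks, from 1 month after PT by the series text. The timing of LEV in the 7 d LEV libraries is therefore unknown here, and so is the length of LEV exposure in the 1 m LEV libraries. The sources used here do not say which age or how many mice stand behind a library, or whether both sides came from the same mice. Every group was thus 1 library, and the p-values below measure spread between libraries of different conditions or sides, not between replicate animals.

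Library totals recovered from the table ranged from 13382623 to 22377376 reads, and levels are in CPM, which scales reads by that total. The limit that a count of 0 allows is 3 reads, or 0.134 to 0.224 CPM by library. Of the 106 rows, 65 were above that limit in all 11 libraries, 7 in none, and 27 were at 0 in at least 1 library. A mean of at least 1 CPM was required for testing, which 61 rows reached (39 C/D, 22 H/ACA) and 45 did not. Markers of hippocampal neurons (6 of 6 listed) summed to 2783 to 3948 CPM in every library. The 5 choroid plexus markers summed to 3116 to 4769 CPM at 7 d, 4112 in naive, 43.3 to 1746 at 1 m and 1243 to 3981 at 2 m.

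The C/D members on which the results turn are printed below with box C and box D in capitals, from the GENCODE M21 transcripts. The first 4 lie close together in the ribosomal protein gene Rpl13a on the minus strand, namely Snord32a (chr7:45127382-45127464), Snord33 (chr7:45126864-45126947), Snord34 (chr7:45126601-45126670) and Snord35a (chr7:45126346-45126435). In the annotation, Snord33 overlaps an exon of at least 1 Rpl13a transcript, and the other three lie in introns.
Snord32a: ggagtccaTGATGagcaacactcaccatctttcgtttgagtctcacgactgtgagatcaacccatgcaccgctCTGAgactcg
Snord33: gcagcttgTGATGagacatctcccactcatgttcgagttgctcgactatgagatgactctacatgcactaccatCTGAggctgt
Snord34: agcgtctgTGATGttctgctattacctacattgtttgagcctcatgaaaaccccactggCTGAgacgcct
Snord35a: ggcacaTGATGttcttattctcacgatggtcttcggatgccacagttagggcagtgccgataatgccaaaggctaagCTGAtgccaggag

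Snord96a (chr11:48802032-48802112) and Snord95 (chr11:48803139-48803206) are both in Rack1 on the plus strand. Rack1 encodes a scaffold protein of the small ribosomal subunit. Snord16a (chr9:64175423-64175521, plus strand) is in Rpl4 and Snord37 (chr10:81178950-81179013, plus strand) in Eef2, which encodes a translation elongation factor. These 4 are shown because they also fell from 7 d to 1 m.
Snord96a: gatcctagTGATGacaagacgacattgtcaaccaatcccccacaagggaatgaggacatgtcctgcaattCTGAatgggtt
Snord95: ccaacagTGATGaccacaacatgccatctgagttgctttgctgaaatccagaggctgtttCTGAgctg
Snord16a: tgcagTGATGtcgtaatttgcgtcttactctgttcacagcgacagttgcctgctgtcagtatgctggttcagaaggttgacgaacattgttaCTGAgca
Snord37: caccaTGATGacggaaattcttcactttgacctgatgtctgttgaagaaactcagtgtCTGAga

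For contrast, members whose row held nearly all reads of the host gene are shown by Snord100 (chr10:23785750-23785823, minus strand, in Rps12) and the H/ACA member Snora24 (chr3:123507937-123508066, minus strand, in the non-coding host Snhg8). In Snora24 the capitals mark the ACA box.
Snord100: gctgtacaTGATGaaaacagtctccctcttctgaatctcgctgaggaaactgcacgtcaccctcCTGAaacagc
Snora24: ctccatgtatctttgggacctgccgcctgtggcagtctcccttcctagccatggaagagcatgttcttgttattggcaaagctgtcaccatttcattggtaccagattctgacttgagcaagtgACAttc

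The first comparison set each member against its host, the annotated protein-coding or long non-coding gene on the same strand that contains it. A host was found for 101 members, in 69 host genes, of which 71 members had a protein-coding host and 30 a long non-coding one. The members fell into 2 separate levels. In 31 rows the reads, summed over the 11 libraries, came to 96.6% to 101.7% of the host row, and in the other 70 rows to 0.00604% to 19.1%, with a median of 0.611% and none in between. These groups are called host-level and below-host rows here, and they were set after the values were seen.

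Host-level rows had mean levels of 5.91 to 1293 CPM (median 109.8), and below-host rows 0.0263 to 48.9 CPM (median 0.431). In 20 members the reads equalled the host row in every library. Examples are Snora64 and Rps2 (779 CPM on average), Snord14a and Rps13 (471 CPM), Snora3 and Rpl27a (281 CPM) and Snora24 and Snhg8 (130 CPM). For such members the table gives a second copy of the host's level and no separate value for the snoRNA. In all, 41 members had the same reads as at least 1 other row, and the 106 rows held 97 distinct patterns. Such partners were not always hosts: Snord33 and Snord34 shared every read with Mir5121, Snora81 with Gm49346 and Snord16a with Gm22571. The values of such rows cannot be given to 1 gene.

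Position in the host gene went with these levels. All 31 host-level rows began within 1000 bases downstream of an annotated start of the host, the farthest at 953 bases. Of the 62 members within that distance, 31 were host-level, and of the 39 members farther away, 0 were. Host-level rows were 17 C/D and 14 H/ACA members, with 16 protein-coding and 15 long non-coding hosts, so that neither class nor host type separated the levels fully. How reads were assigned to genes is not stated, and the 1000-base window was chosen after the values were seen.

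**Figure D1:**
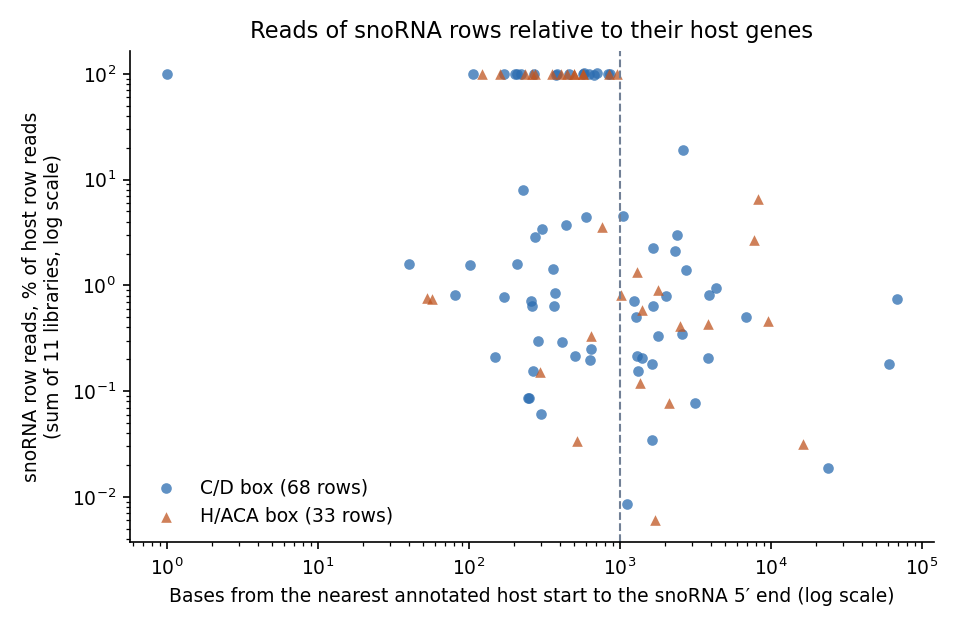
Reads of each snoRNA row as a percent of its host row (y axis, log scale, 11 libraries summed) against the distance from the nearest annotated host start to the snoRNA 5′ end in bases (x axis, log scale). Circles are C/D and triangles H/ACA rows, and the dashed line marks 1000 bases; the 31 rows near 100% all lie to its left, and no row lies between 19.1% and 96.6%.

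The most abundant members were host-level rows. Snora7a, in Rpl32, was highest at a mean of 1293 CPM, followed by Snord59a in Atp5b (1168 CPM), Snora52 in Rplp2 (803 CPM), Snora64, Snord68 in Rpl13 (613 CPM) and Snord100 (580 CPM). Snord14a, Snora21 in Rpl23 (446 CPM), Snord43 in Rpl3 (366 CPM) and Snord15a in Rps3 (304 CPM) complete the 10 highest. Except for Atp5b, a subunit of the mitochondrial ATP synthase, these hosts encode ribosomal proteins. Snora7a stood at 1209 CPM in naive, 1222 to 1534 at 7 d, 1149 to 1462 at 1 m and 1127 to 1138 at 2 m. Its 7 d and 1 m ranges overlapped.

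Members of 1 host could sit at different levels. In Rps3, Snord15a took 101.7% of the host reads while Snord15b had a few CPM. There were 5 members in the non-coding host Snhg12 (92.6 CPM), of which Snora44 and both Snora16a rows equalled it, and Snora61 (0.706 CPM) and Snord99 (0.204 CPM) were far lower. In Rpl23a, Snord42b held 160.7 CPM, against 0.258 CPM for Snord42a and Snord4a. Gas5, a non-coding host of many C/D snoRNAs with a mean of 940 CPM, had 4 listed members, of which Snord78 was highest at 2.86 CPM. Snord82, in Ncl (nucleolin), was the highest below-host row at 48.9 CPM, or 19.1% of the host.

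Genes with their own promoters gave few reads. Snord118, or U8, which is needed for maturation of the large-subunit ribosomal RNAs, had 0 to 4 reads per library and at most 0.229 CPM. It exceeded the 3-read limit in 2 libraries only. Snord13, or U13, which guides acetylation of the small-subunit RNA, was at 1.57 CPM in naive, 0.400 to 1.30 CPM at 7 d, 0.760 to 1.70 at 1 m and 0.415 to 1.25 at 2 m, with a mean of 0.977 CPM, just under the minimum for testing. Its naive library had 22 reads (exact 95% Poisson interval 0.985 to 2.38 CPM, counting error only), and the intervals of 3 PT libraries lay wholly below it: infarcted 7 d (0.161 to 0.824), non-infarcted 7 d with LEV (0.233 to 0.965) and non-infarcted 2 m (0.167 to 0.856 CPM). Those of the other 7 overlapped it. U3, the C/D RNA needed for the first cuts of the ribosomal RNA precursor, carries the symbol Rnu3a here and is thus no member. It was 3.12 ± 0.439 CPM at 7 d and 7.18 ± 2.37 CPM at 1 m (SD, n = 4 each; log2 difference 0.95 ± 0.19 SE, limma adjusted p = 0.00164).

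Imprinted members of the Prader-Willi region were also low. That region makes brain-enriched C/D snoRNAs from the paternal allele only. The 4 Snord116 rows had means of 0.0263 to 0.165 CPM, against 3.63 CPM for their host Snhg14. Snord107 averaged 0.354 CPM. Snord64 was the 1 member of this region that could be tested, at 6.00 CPM in naive, 3.20 and 7.47 at 7 d, 4.42 and 4.86 at 7 d with LEV, 5.46 and 9.76 at 1 m, 5.92 and 5.01 at 1 m with LEV, and 8.39 and 7.65 at 2 m (infarcted side first). Without LEV the non-infarcted side was the higher one at both times.

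Sides were compared within the 5 PT conditions, infarcted minus non-infarcted (limma, Benjamini-Hochberg adjustment over 16057 genes). None of the 61 tested members passed an adjusted p of 0.05, and the background was 0% of all genes tested. At an unadjusted p under 0.05 there were 4 members and 1221 genes. edgeR called 0 members and 0 genes, and DESeq2 0 members and 15 genes. Of the 61 members, 27 were higher and 34 lower on the infarcted side, with a median log2 difference of -0.02 and a range of -0.31 to 0.20.

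The members with the smallest p therefore serve to show the size of what was seen. Snord110, a host-level row in Nop56, was 38.2 ± 3.87 CPM ipsilaterally and 42.2 ± 6.06 CPM contralaterally to the infarct (SD, n = 5 each), lower in 4 of 5 pairs (log2 difference -0.13 ± 0.06 SE, limma adjusted p = 0.643). Snord43 in Rpl3 was lower in 4 of 5 pairs with a log2 difference of -0.12 (limma adjusted p = 0.647). Snord50a and Snord50b, which share every read with their host Snhg5, were 9.42 ± 1.66 against 8.21 ± 2.39 CPM and higher in 5 of 5 pairs (log2 difference 0.20 ± 0.09 SE, limma adjusted p = 0.649). Their 7 d LEV pair was nearly equal, at 9.780 and 9.776 CPM. Snord104, which has no listed host, was 20.6 ± 4.37 against 17.8 ± 2.27 CPM, Snord14c in Hspa8 7.57 ± 0.839 against 8.92 ± 1.73 CPM, and Snord2 in Eif4a2 3.61 ± 0.385 against 4.35 ± 0.386 CPM. In all of these the 2 sides overlapped. Snora52 and Snora3 had log2 differences of 0.13 and 0.13, with unadjusted p above 0.05.

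Whether the side difference itself changed was tested over the 4 conditions at 7 d and 1 m. None of the 61 members passed for either time or LEV in limma, against backgrounds of 0% and 0.168% of genes, and the counts at an unadjusted p under 0.05 were 2 and 5 members, beside 1056 and 977 genes. The smallest p was that of Snord64 for LEV, whose log2 side difference was higher by 0.92 ± 0.20 (SE) with LEV than without (limma adjusted p = 0.283).

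LEV was compared with no LEV over the 4 condition means at 7 d and 1 m, with both sides averaged first. None of the 61 members passed, against a background of 0.0187% of genes (3 of 16057). At an unadjusted p under 0.05 there were 7 members and 980 genes. The edgeR and DESeq2 fits did not average the sides and took the 8 libraries as independent, though both sides may come from the same mice. On that footing edgeR called 0 members and 2 genes, and DESeq2 called 3 members and 110 genes. The 3 that DESeq2 called, all higher with LEV, were Snora21, Snora3 and Snora52, the host-level rows in Rpl23, Rpl27a and Rplp2. Over the 61 members the median log2 difference was -0.02, with 27 above 0 and 34 below, and the range was -0.50 to 0.45.

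Snora3 was 337, 294, 244 and 240 CPM without LEV (7 d infarcted and non-infarcted, then 1 m) and 314, 343, 411 and 386 CPM with LEV. Both 1 m LEV libraries stood above the 6 others, and the 7 d libraries overlapped (log2 difference 0.39 ± 0.14 SE, limma adjusted p = 0.749, higher in 3 of 4 pairs). Snora52 had the same order at 1 m, with 786 and 750 CPM without and 1195 and 1044 CPM with LEV (log2 difference 0.32, limma adjusted p = 0.813). Snora21 was 494 and 459 CPM at 1 m without and 681 and 611 CPM with LEV, and higher with LEV in 4 of 4 pairs (log2 difference 0.29, limma adjusted p = 0.813). Each of these is the level of the host row, for which the log2 differences were 0.39, 0.32 and 0.29.

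Among below-host rows, Snora81 in Eif4a2, a translation initiation factor, was the 1 member whose LEV and no-LEV libraries did not overlap. It stood at 2.32 to 3.08 CPM with LEV and 3.14 to 7.23 CPM without (log2 difference -0.50 ± 0.18 SE, limma adjusted p = 0.729). The gap was slight, between 3.08 CPM in the infarcted 1 m LEV library and 3.14 CPM in the infarcted 1 m library. These values rest on 49 and 42 reads, and their exact Poisson intervals overlapped (2.28 to 4.08 and 2.26 to 4.24 CPM, counting error only). The share of all genes whose LEV and no-LEV libraries did not overlap was not counted. Over the 15 alternatives of Snora81 with an adjusted p, the adjusted p ranged from 0.0318 to 0.925. Snord15a, a host-level row in Rps3, was 333 ± 43.1 CPM without and 277 ± 83.6 CPM with LEV (SD, n = 4 each), lower in 4 of 4 pairs. It did not pass, and its 7 d libraries with and without LEV all lay within 345.7 to 371.3 CPM. The below-host row Snord78 was 3.58 ± 0.721 without and 2.71 ± 0.324 CPM with LEV, while its host Gas5 had a log2 difference of 0.32 in the other direction (limma adjusted p = 0.823). The below-host rows Snord82 and Snora75 in Ncl and the host-level row Snord43 in Rpl3 had log2 differences of 0.28, -0.26 and -0.23, with overlapping groups.

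Of the 3 tested comparisons, time was the 1 in which members passed. From 7 d to 1 m, 22 of the 61 tested members changed (8 rose, 14 fell; limma adjusted p under 0.05), against a background of 15.8% of genes, 5.71% higher and 10.1% lower. Counting rows with the same reads once, 18 of 54 patterns changed, 6 up and 12 down. The median log2 difference of the 61 was -0.10. No alternative turned the direction of a member that the naming rule took from this comparison, but the count of 22 fell to 8 (1 up, 7 down) under TMM scaling, to 13 without the non-infarcted 7 d LEV library, to 13 without the infarcted 1 m library, and to 0 of 106 without the filter on low values. The share of all genes called moved too, to 2.08% under TMM scaling and 0.108% without the filter. It was 7.97% without the non-infarcted 7 d LEV library and 6.61% without the infarcted 1 m library. Over all genes the split of higher and lower calls was 917 and 1620, against 185 and 149 under TMM scaling, 2400 and 2512 in edgeR and 2053 and 1886 in DESeq2.

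Below-host rows gave 8 of 27 calls, all lower at 1 m, and host-level rows 13 of 31, with 7 higher and 6 lower. The members without a host gave 1 of 3. In the plot of the 3 comparisons, the called below-host rows lie below the whole range of the host-level rows, apart from Snord37.

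**Figure D2:**
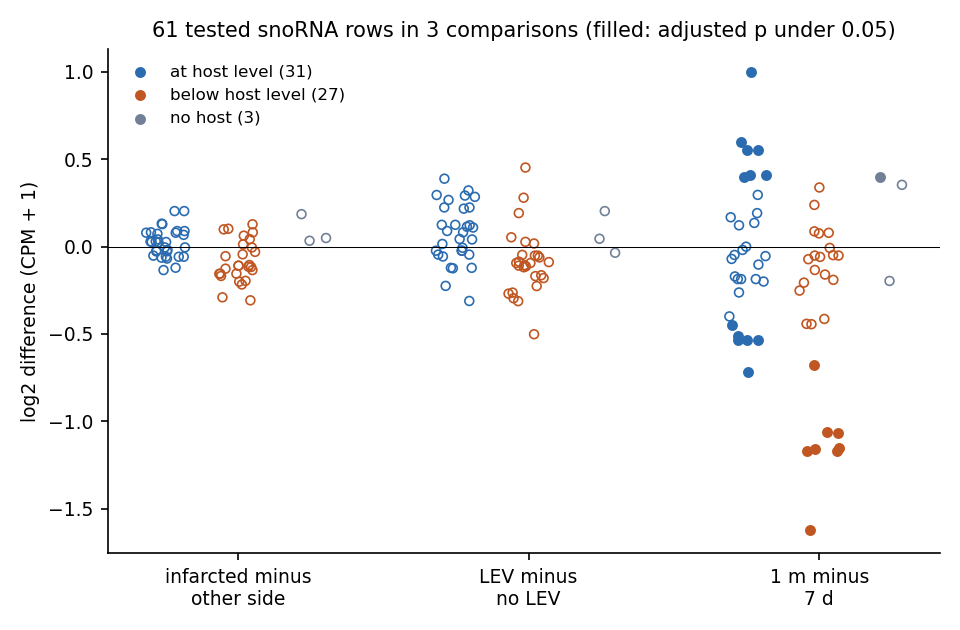
Log2 difference (CPM + 1, y axis) of each of the 61 tested snoRNA rows in the comparisons of sides, LEV and time (x axis), with host-level rows in blue, below-host rows in orange and rows without a host in grey. Filled points passed an adjusted p of 0.05 in limma: none for side or LEV, and 22 for time, of which the 8 orange ones are all below 0.

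The 4 snoRNA rows in Rpl13a fell together. Ribose methylation guides in Rpl13a are also known from work in cultured cells as mediators of lipotoxic and oxidative stress, a role that was not tested here. Snord33 and Snord34, whose rows held the same reads, were at 10.4 CPM in naive, 34.2 and 35.8 at 7 d, 30.8 and 32.7 at 7 d with LEV, 12.1 and 17.4 at 1 m, 15.5 and 12.6 at 1 m with LEV, and 6.32 and 7.30 at 2 m (infarcted side first throughout). All 4 libraries of 7 d were thus higher than the 7 others, and the 2 m pair was lower than naive. From 33.4 ± 2.14 CPM at 7 d to 14.4 ± 2.50 CPM at 1 m (SD, n = 4 each), the level fell 2.32-fold (log2 difference -1.17 ± 0.13 SE, limma adjusted p = 1.53e-06, lower in 4 of 4 pairs). The reads behind the first 7 d library numbered 599 (exact 95% Poisson interval 31.5 to 37.1 CPM), and those in naive 145 (8.74 to 12.2 CPM).

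Snord35a and Snord32a had nearly the same values. Snord35a went from 32.6 ± 2.11 to 14.2 ± 2.47 CPM (log2 difference -1.15, limma adjusted p = 1.96e-06), and Snord32a from 30.4 ± 1.94 to 13.2 ± 2.31 CPM (log2 difference -1.16, limma adjusted p = 2.16e-06). The 4 rows lie close together and may share reads, so they are not 4 independent measurements. Their host Rpl13a was at 1353 to 1466 CPM at 7 d and 1152 to 1321 CPM at 1 m, a log2 difference of -0.16 that did not pass (limma adjusted p = 0.514). Snord33 accordingly made up 2.21% to 2.65% of the Rpl13a reads at 7 d, 0.958% to 1.36% at 1 m, 0.616% to 0.733% at 2 m and 0.990% in naive. The difference between member and host was not tested.

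The Rack1 pair was likewise highest at 7 d. Snord96a was at 1.21 CPM in naive, 5.20 and 7.47 at 7 d, 5.83 and 5.88 at 7 d with LEV, 1.57 and 1.43 at 1 m, 1.26 and 0.938 at 1 m with LEV, and 1.36 and 0.593 at 2 m. Only the 7 d libraries exceeded 2 CPM. The fall from 6.09 ± 0.971 to 1.30 ± 0.273 CPM was 4.69-fold (log2 difference -1.62 ± 0.17 SE, limma adjusted p = 8.8e-07, lower in 4 of 4 pairs) and was the largest among the members tested. It rests on 91 to 120 reads per library at 7 d and 20 or 21 at 1 m.

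Snord95 was at 0.786 CPM in naive, 2.94 to 3.74 at 7 d, 0.789 to 1.38 at 1 m and 0.771 to 0.817 at 2 m. It fell 3.08-fold from 7 d to 1 m (log2 difference -1.07 ± 0.18 SE, limma adjusted p = 0.000304). Their host Rack1 also fell, by 0.39 on the log2 scale (limma adjusted p = 0.0399). Snord96a made up 2.89% to 5.30% of the Rack1 reads at 7 d and 0.654% to 1.62% at 1 m.

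Snord16a, in Rpl4, was at 2.64 CPM in naive, 5.09 and 6.29 at 7 d, 5.31 and 5.82 at 7 d with LEV, 2.47 and 2.65 at 1 m, 1.89 and 1.74 at 1 m with LEV, and 1.31 and 1.84 at 2 m. It fell 2.57-fold (log2 difference -1.06 ± 0.17 SE, limma adjusted p = 0.000155), while Rpl4 had a log2 difference of 0.09 (limma adjusted p = 0.702). Snord37, in Eef2, was at 4.71 CPM in naive, 6.24 to 9.28 at 7 d, 3.74 to 4.65 at 1 m and 3.74 and 4.09 at 2 m, a 1.76-fold fall (log2 difference -0.68 ± 0.16 SE, limma adjusted p = 0.0064) beside -0.25 for Eef2 (limma adjusted p = 0.265). In both, the 4 libraries of 7 d again stood above the 7 others.

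**Figure D3:**
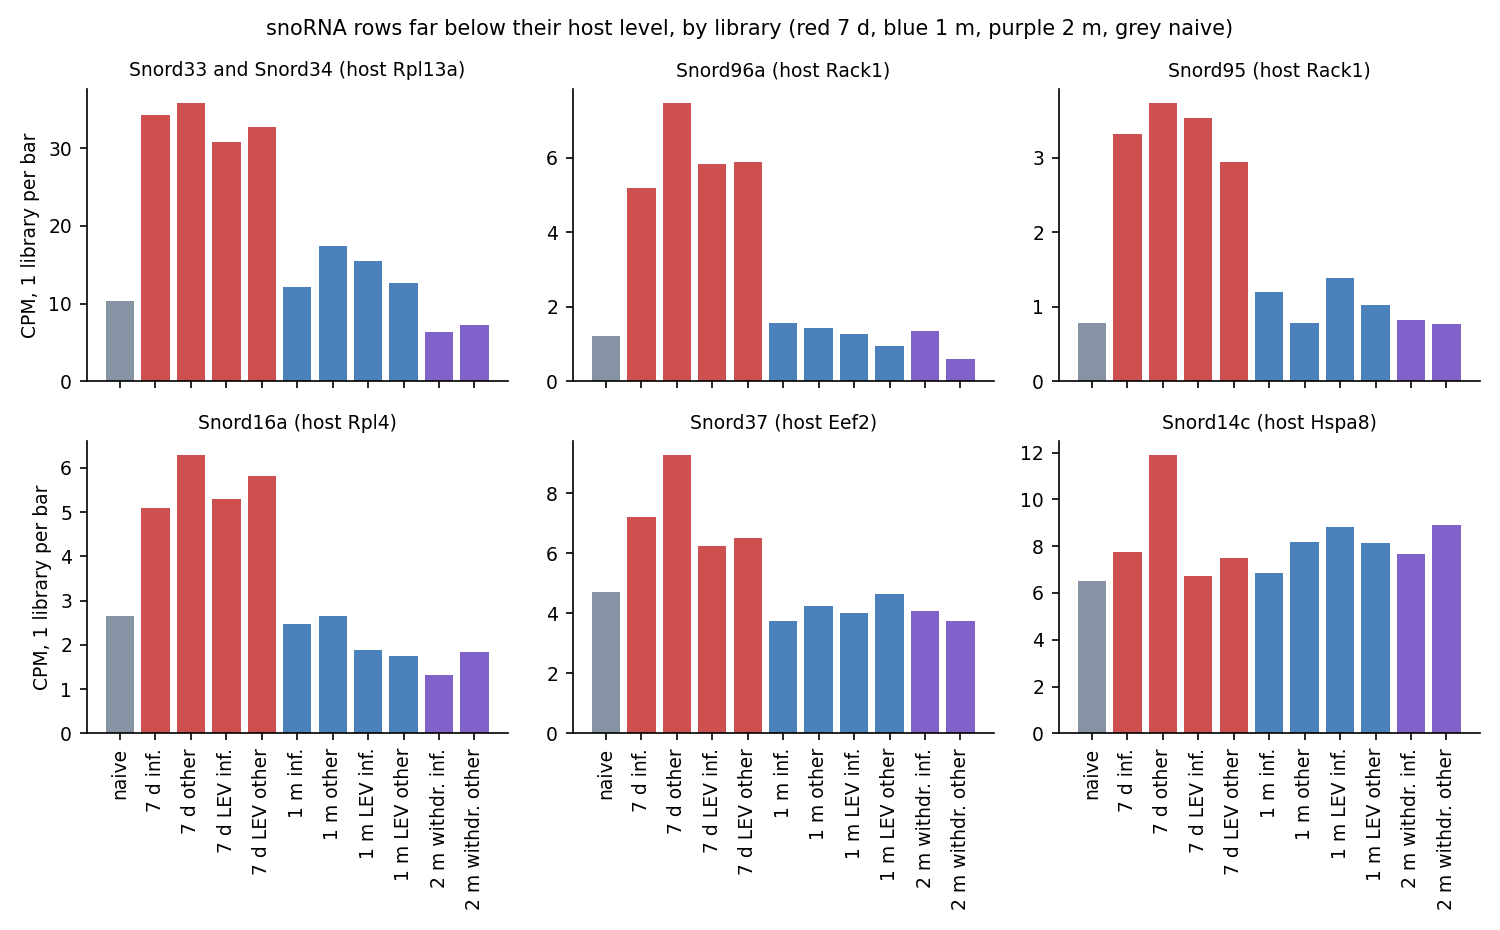
CPM (y axis, from 0) of 6 below-host snoRNA rows in each of the 11 libraries (x axis, 1 bar per library; inf., infarcted side; other, non-infarcted side; withdr., LEV withdrawn). Snord33 and Snord34, Snord96a, Snord95, Snord16a and Snord37 are highest in the 4 libraries of 7 d, whereas Snord14c in Hspa8 overlaps between time points.

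In all, 14 of the 61 members (12 patterns) had all 4 libraries of 7 d above all 7 others, against a background of 4.2% of genes tested. Beside the 8 below-host rows above they included Snord15b, Snord15a, Snord58b and the pair Snord50a and Snord50b. For Snord15a the margin was slight, with a lowest 7 d value of 345.7 CPM against 345.1 CPM in the highest other library. Libraries of 7 d and 1 m did not overlap in 28 members (background 29.9%), and 17 of these were lower at 1 m (background 19.1%).

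Other below-host rows did not follow. Snord14c, Snord14d and Snord14e, the U14 copies in Hspa8 that assist processing of small-subunit RNA, had log2 differences of -0.05 each, while the heat-shock host Hspa8 fell by 0.62 (limma adjusted p = 0.006). Snord82 and Snora75 had 0.08 and -0.13 beside a fall of 0.59 for Ncl (limma adjusted p = 0.00244). Snord2 and Snora81 had -0.06 and -0.07 beside a fall of 0.73 for Eif4a2. None of these 7 members passed, and of the 27 below-host rows tested, 22 had a log2 difference below 0, with a median of -0.19 and a range of -1.62 to 0.34.

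**Figure D4:**
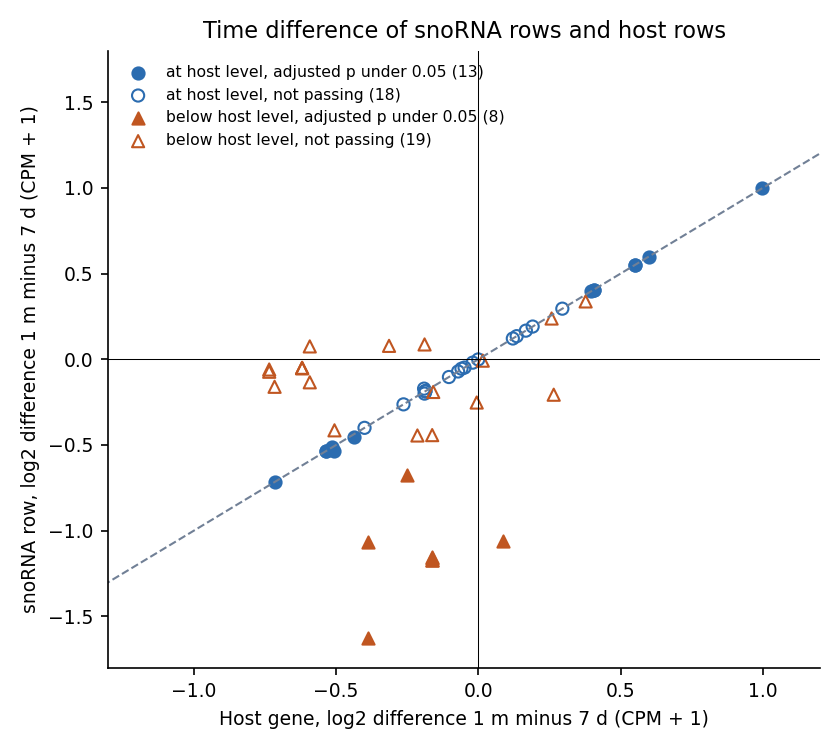
Log2 difference from 7 d to 1 m (CPM + 1) of each tested snoRNA row (y axis) against that of its host row (x axis), with the dashed line marking equal values. Host-level rows (circles), which hold nearly the same reads as the host, lie on or next to the line; the 8 called below-host rows (filled triangles) lie between -1.62 and -0.68 while their hosts lie between -0.39 and 0.09.

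Host-level rows moved with their hosts in both directions. Snord100, the row of Rps12, was at 562 CPM in naive, 396 to 491 at 7 d, 623 and 708 at 1 m, 1096 and 1066 at 1 m with LEV, and 330 and 291 at 2 m. From 426 ± 44.0 CPM at 7 d it rose 2.05-fold to 874 ± 243 CPM (log2 difference 1.00 ± 0.16 SE, limma adjusted p = 0.000167), and the pairs with LEV (1.42 and 1.39) exceeded those without (0.34 and 0.84). Snora24 with Snhg8 rose from 111 ± 6.36 to 169 ± 14.8 CPM (log2 difference 0.60 ± 0.12 SE, limma adjusted p = 0.00157). Snord49a and Snord49b with 2410006H16Rik, a non-coding host, rose from 92.3 ± 2.86 to 137 ± 24.3 CPM (limma adjusted p = 0.00472).

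Snora73a and Snora73b, the U17 copies that help to cleave the ribosomal RNA precursor, rose with Snhg3 from 30.8 ± 3.37 to 41.1 ± 1.90 CPM (log2 difference 0.41, limma adjusted p = 0.0256). Snora21 rose by 0.40 on the log2 scale (limma adjusted p = 0.0477), and Snord104, the 1 called member with no listed host, by 0.40 (16.8 ± 1.56 to 22.5 ± 3.05 CPM, limma adjusted p = 0.0401). Several of these calls depended on the setting. Snora21 passed in 7 of its 17 alternatives (adjusted p up to 0.203), Snord104 in 10 of 17 (up to 0.162) and Snora73a in 11 of 17 (up to 0.137).

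Snord15a fell with Rps3 from 358 ± 13.3 to 252 ± 57.1 CPM (log2 difference -0.54, limma adjusted p = 0.00819). Other host-level members that fell were Snord68 with Rpl13, Snord58b with Rpl17 and Snord50a and Snord50b with Snhg5, by 0.51, 0.45 and 0.53 on the log2 scale. The 69 host genes as a whole gave 24 calls, 9 higher and 15 lower, with a median log2 difference of -0.08, and the 24 hosts that encode ribosomal proteins gave 4 higher and 7 lower. The background for these counts is again 15.8% of genes, 5.71% higher and 10.1% lower.

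All 5 choroid plexus markers also fell from 7 d to 1 m, with log2 differences of -3.65 (Ttr) to -2.09 (Aqp1). Their summed level was lowest in the infarcted 1 m library (43.3 CPM) and the non-infarcted 1 m LEV library (86.8 CPM). Their part in the time differences was not tested. The naive library had a choroid plexus sum of 4112 CPM, within the 7 d range. Among neuronal markers 3 of 6 rose, including Slc17a7, and 1 of 4 microglial (Cx3cr1) and 1 of 4 astrocytic markers (Aqp4) fell. In bulk tissue, fewer cells of a type and less RNA per cell cannot be told apart.

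Each PT condition was set against the single naive library without a test. A member was counted when both sides moved the same way by 1 or more on the log2 scale. At 7 d, 7 members were higher and 0 lower, against a background of 0.237% of genes higher. At 7 d with LEV, 7 were higher and 0 lower, against 0.212%. These were Snord32a, Snord33, Snord34, Snord35a, Snord95, Snord96a and Snord15b in both, of which Snord15b is named here beyond the naming rule. Snord32a, Snord33, Snord34 and Snord35a are all in Rpl13a, and Snord95 and Snord96a are both in Rack1. The 7 rows are thus not 7 independent measurements. Neither 1 m condition nor the 2 m condition had such a member (backgrounds 0.262% at 1 m, 0.436% at 1 m with LEV and 2.14% at 2 m in either direction). All of these comparisons share the 1 naive library, so its own error enters every one.

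At 7 d the log2 differences from naive were 1.63 and 1.70 for Snord33 (infarcted, then non-infarcted side) and 1.49 and 1.57 with LEV, while Rpl13a had 0.49, 0.37, 0.41 and 0.42. Snord96a had 1.49 and 1.94, and 1.62 and 1.64 with LEV, while Rack1 had 0.83, 0.48, 0.66 and 0.71. Snord15b had 1.39 and 1.28, and 1.10 and 1.28 with LEV. It was at 0.928 CPM in naive, 3.12 to 4.06 CPM at 7 d, 2.23 to 2.58 at 1 m and 0.926 and 0.593 at 2 m. At 1 m, Snord33 stood at 0.21 and 0.70 above naive, and Snord96a at 0.21 and 0.14. With LEV at 1 m the differences from naive were 0.54 and 0.27 for Snord33, and 0.03 and -0.19 for Snord96a.

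After LEV withdrawal (2 m) compared with LEV at 1 m, 5 members were lower by a log2 of at least 1 on both sides and 0 higher, against a background of 1.77% of genes lower. These conditions differ in time after PT as well as in the drug, which cannot be told apart. Snord100 went from 1096 and 1066 CPM to 330 and 291 CPM (log2 difference -1.73 and -1.87), Snora3 from 411 and 386 to 169 and 123 CPM, Snora52 from 1195 and 1044 to 507 and 423 CPM, and Snora21 from 681 and 611 to 273 and 276 CPM. These 4 are host-level rows of Rps12, Rpl27a, Rplp2 and Rpl23. The fifth, Snord32a, went from 14.5 and 12.1 to 5.50 and 4.03 CPM (log2 difference -1.25 and -1.38), beside -0.31 and -0.41 for Rpl13a.

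Transcripts of the genes for snoRNA particle proteins were compared over the same times. Of the 8 core genes, 3 fell and 1 rose from 7 d to 1 m, with a median log2 difference of -0.27. Gar1, of the H/ACA core, fell from 46.5 ± 1.19 to 28.4 ± 2.74 CPM (log2 difference -0.70 ± 0.12 SE, limma adjusted p = 0.00047). Fbl (fibrillarin, the methyltransferase) fell by 0.46 on the log2 scale and Nop58 by 0.38. Nop10, the smallest H/ACA core protein, rose from 119 ± 2.66 to 219 ± 26.2 CPM (log2 difference 0.87 ± 0.12 SE, limma adjusted p = 4.1e-05). Nop56, Snu13, Dkc1 (dyskerin) and Nhp2 did not pass, with log2 differences of -0.19, -0.20, -0.35 and -0.11.

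Among 12 assembly and cap genes, 5 fell and 0 rose. They were Shq1 (-0.60), Nolc1 (-0.55), Tgs1 (-0.44), Ruvbl2 (-0.40) and Phax (-0.40). Shq1 escorts dyskerin, Nolc1 is a nucleolar phosphoprotein that binds both particle classes, Tgs1 makes the trimethylguanosine cap, and Phax carries capped small RNAs. Of 9 listed processing and decay genes, 1 fell, the nuclear exonuclease Xrn2 (-0.42). Of 15 genes of the U3 processome and ribosomal RNA synthesis, 2 fell, Mphosph10 (-0.78) and Ncl (-0.59). Together 12 of 44 changed, 1 up and 11 down, to be read against the same background of 15.8%, 5.71% higher and 10.1% lower. None of the 44 passed for side or LEV.

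Further snoRNA genes with other symbols, mostly predicted copies, were listed in 258 rows, of which 68 were tested. Of these 27 changed from 7 d to 1 m, 9 up and 18 down, beside 5.71% of all genes up and 10.1% down, and 0 passed for side or LEV. Rows with equal reads were not counted once here, so these calls may repeat each other or those of members.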

How the data were processed

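CAGE libraries from cap-trapped, random-primed total RNA were made from whole hippocampus, 1 per group and 11 in all. The deposited table holds CPM per gene, scaled by the authors to library totals. GRCm38, DESeq2 1.20.0, HISAT2 2.0.5 and BWA 0.7.17 are named per the submitters' processing notes, without roles or a counting rule. Whole reads could be recovered for 100% of values (within 0.001 reads), and these reads were used for edgeR 4.0.16 and DESeq2 1.42.0 alternatives. For LEV and time, both alternatives took the 8 libraries as independent, with side in the model.

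Tests used limma 3.58.1 (lmFit, eBayes with a trend, R 4.3.3) on log2(CPM + 1), for the 16057 genes with a mean of at least 1 CPM, with Benjamini-Hochberg adjustment over all of them and a threshold of 0.05. Fold changes on that log2 scale understate the change of low rows, whereas folds without "log2" are ratios of mean CPM. The side fit had 4 residual degrees of freedom. LEV and time were fitted on 4 condition means with 1 residual and 21.6 prior degrees of freedom, so their errors rest mainly on spread shared across genes. Scripts were tested on simulated data. The members and lists were chosen with earlier results of these data known. Named members are Snord118 and Snord13, the 10 highest by mean CPM, up to 10 per direction and tested contrast past the threshold (fewer than 5 were filled to 5 by smallest p, not passing), up to 5 per direction against naive and for withdrawal, the highest member of each host with 3 or more, the core particle proteins and list genes that passed, and rows with equal reads. Other members named were chosen after their values were seen. Sequences are GENCODE M21 transcripts. Some members under the naming rule are not reported here.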

Additional observations from a re-analysis of the deposited data

How the results depend on the processing

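The time count of 22 members was 8 under TMM scaling and 0 without the filter on low values (37 of 106 at an unadjusted p under 0.05), and leaving out single libraries gave 13 to 21. The share of all genes called was 15.8% in the main fit, 2.08% under TMM scaling and 0.108% without the filter. Leaving out single libraries gave shares of 6.61% to 14.9%. The causes were not tested. Other settings gave 18 (equal rows counted once, 16.3% of genes called) to 26 (8 libraries as independent, 31.1%). There were 25 in edgeR (30.6%) and 24 in DESeq2 (24.5%), both also with the 8 libraries as independent. The LEV count of 0 was 3 in DESeq2, and leaving out single libraries gave 0 to 1. The side count was 0 in every setting, including 0 with no block. Against naive, a pseudocount of 5 gave 4 members at 7 d and 4 at 7 d with LEV, all higher (0.0747% and 0.081% of genes higher). A pseudocount of 0.5 gave 1 at 1 m and 1 at 1 m with LEV, TMM scaling gave 1 at 1 m with LEV, and no filter gave 1 at 2 m. In that order, the shares of genes counted in either direction were 0.392%, 0.629%, 0.467% and 1.56%. The withdrawal count of 5 ranged from 4 to 7, beside 1.09% to 2.37% of genes lower. No setting turned the direction of a member named from the side, LEV or time comparison, and other named members were not recomputed one by one. Of the values of named members under the alternatives, 249 for time kept their call and 51 no longer passed, while 159 for LEV and 131 for side kept theirs and 4 for LEV newly passed. The side comparison was paired by condition, and the labels give no replicate numbers, so replicates could not be paired. Depth limits the 45 rows that were not tested, of which 7 never exceeded 3 reads.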
